A study of Zea mays subsp. mays with 2 samples.

Results

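Well-expressed loci of the maize endosperm, defined by a mean of at least 100 and under 500 FPKM over a dek35 mutant and a wild-type library, numbered 719 of the 43446 rows in each deposited table. FPKM counts sequenced fragments per kilobase of transcript and is scaled to the sequencing yield of a library. The members also had to lie on chromosomes 1 to 10, to have coordinates that no other row shares, and to span at least 200 bp. Of 994 rows in this range of mean level, 233 were left out because another row has the same coordinates, 38 because they span under 200 bp and 4 because they lie off the 10 chromosomes. The mean of both libraries chose the members, so their mean level is a description and not a finding.

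Both libraries were made from endosperm taken from kernels at 18 days after pollination, 1 from the genotype dek35 and 1 from the genotype wild type. The dek35 allele and the inbred background are not given in the labels. The submitters' design text speaks of triplicates, but each genotype has 1 sample with 1 column of values, so no difference below has a replicate check and no test of the genotypes was possible. How many reads lie behind a value is unknown.

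The endosperm nourishes the maize embryo and fills the kernel with starch and storage proteins, mainly zeins, which are made from families of very highly transcribed genes. Transcripts below that top layer include those of genes for the other work of the cell, such as starch synthesis, protein synthesis and energy metabolism. The dek35 locus encodes a pentatricopeptide repeat protein that acts in mitochondria on the splicing of the transcript for nad4, a subunit of respiratory complex I, and mutant kernels fill poorly. The loci in the files carry coordinates without gene names, and 0 of the 719 had exactly the start and end of a gene annotated on Zm-B73-REFERENCE-NAM-5.0. The sources used here do not give the genome build of the files. The members are therefore identified by the coordinates of the files, with starts counted from 1, and no gene list or cell type marker could be applied to them. In bulk tissue, fewer cells of a type and less RNA per cell cannot be told apart.

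Most of the 719 loci had more FPKM in dek35 than in wild type. In dek35 their values ran from 0.0843 to 872 FPKM with a median of 221, and the middle 50% lay between 167 and 318. In wild type they ran from a locus listed at 0 to 982 FPKM with a median of 99.9, and the middle 50% lay between 68.0 and 154. The dek35 value was the higher one at 621 loci (86.4%) and the wild-type value at 98. The same direction held for 80.2% of the 17514 loci used for comparison below, so it is not particular to the members. A mean under 500 FPKM keeps both values of a member under 1000.

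**Figure D1:**
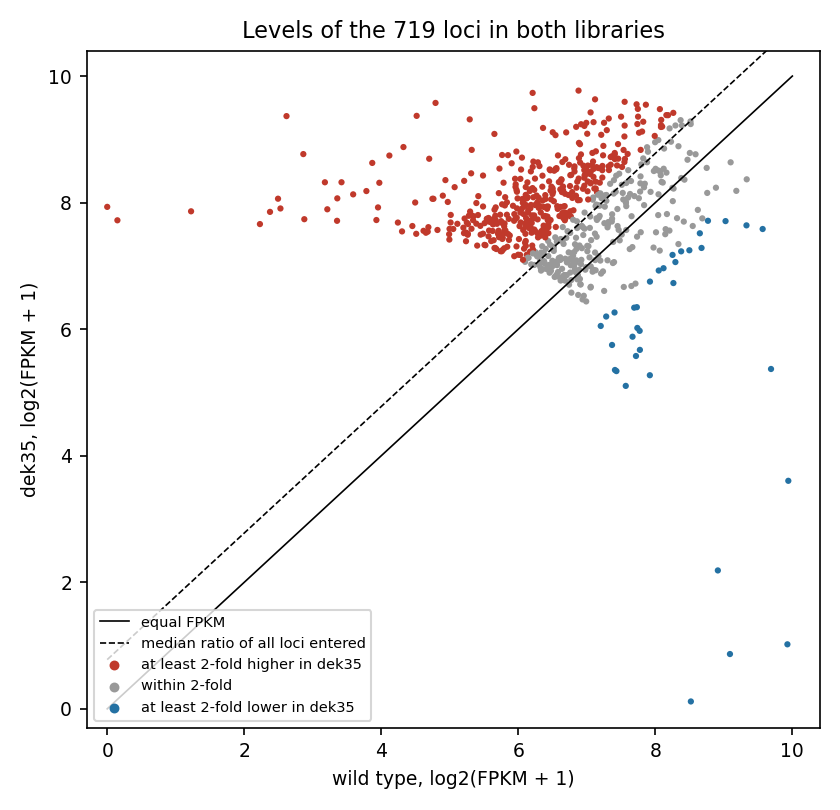
Each point is 1 of the 719 loci, with its wild-type level on the x axis and its dek35 level on the y axis, both as log2(FPKM + 1). The solid line marks equal FPKM and the dashed line the median ratio of all loci entered. Most points lie above the solid line; the empty corner at low levels in both libraries follows from the minimum mean of 100 FPKM. The points at the far left are low in wild type, and a few at the lower right are low in dek35.

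Only 332 of the members reached 100 FPKM in both libraries. In another 360 the mutant alone reached it, and in 27 wild type alone did. The loci that reached it in both had a median log2 ratio of 0.73, where the ratio is log2((dek35 + 1)/(wild type + 1)). Relative to the median of all loci entered, which is given with the comparison, their median was -0.046. On that scale 23 (6.93%) were higher by 2-fold or more and 47 (14.2%) lower, against 16.0% and 14.4% of all loci entered. The minimum of 100 FPKM in both libraries and the mean under 500 limit how large a ratio in this set can be. Its median and shares therefore cannot be separated from how it is defined. For the other two sets the side on which they lie follows from how they are defined. Their median log2 ratios were 1.75 for loci that reached 100 FPKM in dek35 alone and -1.79 for loci that reached it in wild type alone.

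Ranks within a library do not depend on scaling between libraries. The median rank of the members, counted from the most abundant locus, was 683 in dek35 and 742 in wild type. The spread of ranks was wider in wild type, where the middle 50% ran from 452.5 to 1208, against 427 to 938.5 in dek35. Among the 1000 most abundant loci of each library there were 568 members in dek35 and 479 in wild type, and 348 were among the first 1000 in both. The rank was nearer the top in dek35 at 433 loci and nearer the top in wild type at 285. The choice of members on the mean of the deposited FPKM does depend on scaling between libraries. These rank differences therefore cannot be separated from the way the members were chosen.

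The members took a larger share of the summed FPKM in dek35. Together they summed to 186849 FPKM in the mutant and 92934 in wild type, which is 17.6% and 7.56% of all summed FPKM. The 50 loci with the highest mean, which are not members, held 18.8% of summed FPKM in dek35 and 57.3% in wild type. With those 50 loci left out of the totals, the members held 21.7% in dek35 and 17.7% in wild type. The sums use the same values that chose the members. More members reached 100 FPKM only in the mutant (360) than only in wild type (27). The larger share in dek35 therefore cannot be separated from that choice.

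The ratios of the members were compared with those of all 17514 loci that had at least 5 FPKM in at least 1 library; all 719 members passed this minimum, as their mean requires. The median log2 ratio of the members was 1.22, a 2.33-fold higher level in dek35, against 0.78 for all loci entered. The middle 50% of the members ran from 0.48 to 1.86. As deposited, 420 members (58.4%) were at least 2-fold higher in dek35, against 40.3% of all loci entered, and 35 (4.87%) were at least 2-fold lower, against 5.18%. At 4-fold, 148 members (20.6%) were higher, against 11.8%, and 12 (1.67%) were lower, against 2.09%.

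The ratios were also set against the median locus. After the median of all loci entered was subtracted, the median of the members was 0.44. On this scale 198 members (27.5%) stood higher by 2-fold or more, against 16.0% of all loci entered, 73 (10.2%) were at least 2-fold lower, against 14.4%, and 448 lay within 2-fold. At 4-fold, 56 (7.79%) were higher, against 4.49%, and 25 (3.48%) were lower, against 4.08%. The shares of lower members were thus close to, or under, those of all loci, as deposited and relative to the median locus. With median-of-ratios factors in place of the deposited scale, the median was 0.38, with 186 members higher by 2-fold or more and 80 lower by as much. Without the minimum of 5 FPKM the median of all loci was lower, and 337 members were higher and 46 lower relative to it. The shares of all loci past 2-fold under these changed settings are not given here. Whether these counts exceed such shares therefore cannot be said.

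**Figure D2:**
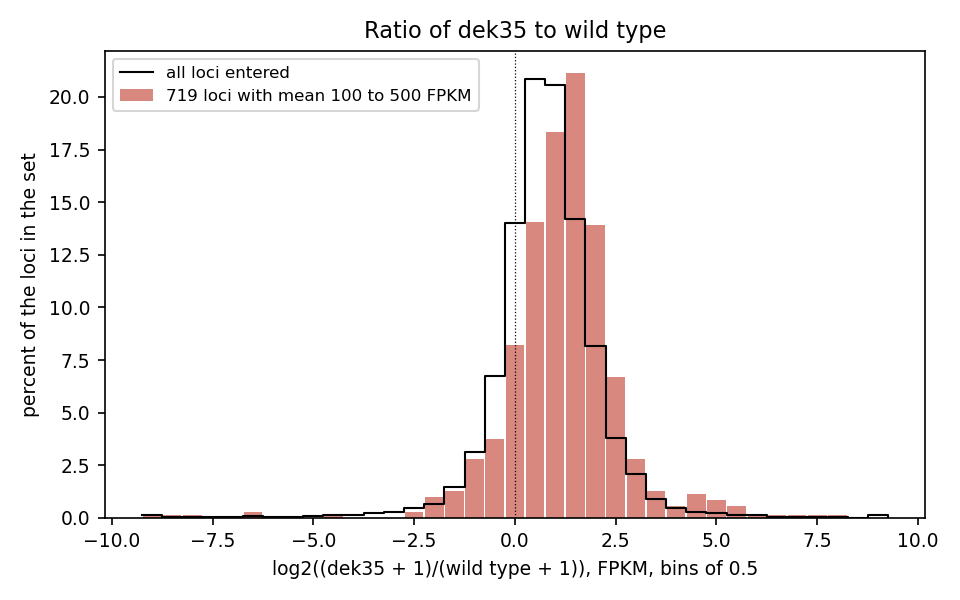
Bars give the percent of the 719 loci, and the black line the percent of all 17514 loci entered, in each bin of log2((dek35 + 1)/(wild type + 1)); ratios past either end of the axis are counted in the last bin. The bars peak between 1.25 and 1.75, where 21.1% of the members lie, and the line peaks between 0.25 and 0.75, with 20.8% of all loci.

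The library on which the loci were chosen moved this result. When the same limits of 100 and 500 FPKM were applied to the wild-type value alone, 419 loci were found, and their median relative to all loci was -0.053, with 46 higher by 2-fold or more and 85 lower by that much. When they were applied to the dek35 value alone, 977 loci were found, with a relative median of 0.62, 318 higher and 58 lower. With the mean taken after median-of-ratios scaling of dek35, a choice added once the values were known, 471 loci had a relative median of 0.37, with 109 higher and 64 lower. Choosing on the value of 1 library favours loci that are high in that library. The excess of the members therefore cannot be separated from the way they were chosen.

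Across classes of level the median log2 ratio was highest in the 100 to 500 FPKM class. Loci that met the other criteria had medians of 0.65 between 5 and 10 FPKM, 0.69 between 10 and 30, and 0.87 between 30 and 100. The 116 loci at 500 FPKM or more had a median of 0.64. The spread of the members, with an interquartile range of 1.38 (log2), was above the 1.27 of the 30 to 100 FPKM class and under the 2.12 of the loci at 500 FPKM or more. Among the members, loci lower by 4-fold or more as deposited were scarcer than in the class at 500 FPKM or more, with 1.67% against 14.7%. They were rarer still in the classes under 100 FPKM. There the share was 0.99% between 30 and 100, 0.82% between 10 and 30, and 1.28% between 5 and 10. On the higher side the 4-fold share was 20.6% for the members and 21.6% for the loci at 500 FPKM or more.

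**Figure D3:**
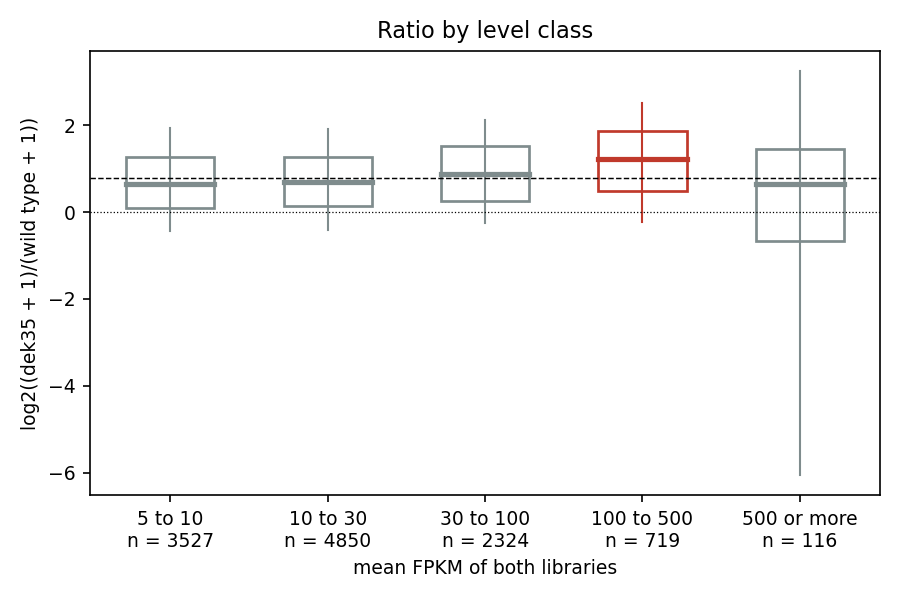
For 5 classes of mean FPKM, boxes span the middle 50% of log2((dek35 + 1)/(wild type + 1)), thick lines mark the median and thin lines run from the 10th to the 90th percentile over loci; the dashed line is the median of all loci entered. The 100 to 500 FPKM class, in red, has the highest median, 1.22, and the class at 500 FPKM or more reaches down to -6.06 at its 10th percentile.

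Within the range the ratio did not follow the level. The median log2 ratio was 1.16 for 311 members with a mean of 100 to 150 FPKM, 1.46 for 151 between 150 and 200, 1.24 for 159 between 200 and 300 and 1.13 for 98 between 300 and 500. Across the 719 loci the correlation of log2 mean and log2 ratio was -0.082 (Pearson) and -0.002 (Spearman); both measures are built from the same pair of values. Log2 levels in wild type and dek35 correlated at -0.055 (Pearson) and 0.13 (Spearman), and limits on the mean of both values lower such a correlation.

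The nearest loci on both sides of each edge of the range had close mean levels, which does not describe the classes beyond it. Just inside the lower edge were chromosome 5, 215707063 to 215712278, with 159 FPKM in the mutant and 41.2 in wild type, and chromosome 7, 142847263 to 142850086, with 121 and 79.5. Just outside it were chromosome 6, 157965018 to 157969757, with 162 and 38.0, and chromosome 4, 235703052 to 235706239, with 95.02 and 105. Just inside the upper edge were chromosome 6, 87282559 to 87286379, with 683 and 306, and a chromosome 7 locus that is among the lowest ratios described next. Just outside it were chromosome 2, 41931698 to 41935612, with 737 and 266, and chromosome 2, 163100314 to 163106027, with 699 and 322.

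Levels under 5 FPKM were found at 4 members in dek35 and 7 in wild type. In 6 members (0.834%) the level was at least 16-fold lower in dek35, against 0.748% of all loci entered, so this share was near that of all loci. Relative to the median locus the same number of members was at least 16-fold lower, against 1.06%. The ratios of the 6 were unevenly spaced, with steps from -6.34 to -4.32 within them and from -4.32 to -2.65 for the next member. The lowest ratio belonged to chromosome 6, 39087615 to 39088302, with 1.03 FPKM in the mutant and 973 in wild type, a log2 ratio of -8.91. Chromosome 4, 5083079 to 5084155, had 0.0843 FPKM in the mutant and 366 in wild type (-8.40). Chromosome 8, 108689439 to 108690609, had 0.823 and 544 FPKM (-8.22). All 3 were thus at or near 1 FPKM or under it in dek35, a level at which the added 1 FPKM understates the ratio.

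The other 3 had higher levels in dek35. Chromosome 4, 5594840 to 5595805, had 3.55 FPKM in the mutant and 481 in wild type (-6.73). Chromosome 7, 18867732 to 18868453, had 11.2 FPKM in the mutant and 982 in wild type (-6.34), the highest wild-type value of any member. Chromosome 6, 31567089 to 31568921, the sixth, had 40.4 and 824 FPKM (-4.32).

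Of these 6 loci, 4 lay within 100 kb of an abundant locus, one with a mean of at least 500 FPKM and a span of at least 200 bp, against 20 of all 719 members. Rows that share their coordinates with another row were kept among the abundant loci. Where several rows were equally near, the ratio given is that of the first. In each of these 4 cases the abundant neighbour was also far lower in dek35. The chromosome 6 locus at 39087615 was 3365 bp from a neighbour with a log2 ratio of -8.84, and the chromosome 7 locus at 18867732 was 1586 bp from one with -5.94. The chromosome 4 loci were 9950 and 33470 bp from neighbours with -6.34 and -7.72. Whether these neighbours are copies of each other that share reads was not tested, so their separate levels are uncertain. The remaining pair did not show this: the chromosome 8 locus was 2148356 bp from the nearest abundant locus, whose ratio was -0.76, and the sixth locus was 6547569 bp from one with a ratio of 0.68.

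The 20 members within 100 kb of an abundant locus have 19 distinct nearest abundant loci. Of the 20, those 4 (20%) were the only members lower by 2-fold or more, and 11 (55%) were higher by as much. Of the 19 abundant loci, 6 were lower by 2-fold or more. So were 24 (20.7%) of the 116 loci at 500 FPKM or more that met the other criteria. The 6 were nearest to 7 members, of which 4 were lower by 2-fold or more and 3 were not. The abundant locus on chromosome 4 with a log2 ratio of -6.34 was nearest to the member at 5083079 and also to 5012238 to 5017850, which had 154 FPKM in the mutant and 54.6 in wild type, a ratio of 1.48. On chromosome 2, 183945415 to 183947706, with 762 FPKM in the mutant and 26.7 in wild type (4.78), lay 44255 bp from an abundant locus with a ratio of -2.56. Among the 699 members farther away, 31 (4.43%) were lower by 2-fold or more and 8 of these by 4-fold or more. In the same set 409 (58.5%) were higher by 2-fold or more, a share near that of the 20. Over all loci entered, 5.18% were lower and 40.3% higher by 2-fold or more, as deposited.

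In 24 members (3.34%), found on all 10 chromosomes, the level was at least 16-fold higher in dek35, against 1.32% of all loci entered. Relative to the median locus there were 14 (1.95%), against 0.845%. The 24 had 201 to 762 FPKM in dek35 and at most 38.2 FPKM in wild type, with a wild-type median of 8.75. A mean of at least 100 FPKM with so large a difference requires a high dek35 and a low wild-type value. The 24 thus became members through dek35, and their excess over all loci cannot be separated from that choice. A single member was listed at 0: chromosome 7, 130385823 to 130386139, a span of 317 bp, with 243 FPKM in dek35, for which no fold is given. Chromosome 6, 147253085 to 147254465, had 210 FPKM in the mutant and 0.109 in wild type (log2 ratio 7.57). Chromosome 9, 6491475 to 6492651, had 659 and 5.13 FPKM (6.75), and chromosome 3, 218917243 to 218918947, had 232 and 1.34 FPKM (6.64). The first pair of these 4 was at or near 0 in wild type, and the other pair had low but higher levels there.

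Next in order of ratio, chromosome 1, 11298552 to 11299266, had 435 FPKM in the mutant and 6.27 in wild type (5.90), and chromosome 4, 156508360 to 156509901, had 266 and 4.63 FPKM (5.57). Of the 24, 1 lay within 100 kb of an abundant locus. On chromosome 2 a pair of them lay about 100 kb apart: 14631515 to 14632312 had 319 FPKM in the mutant and 8.05 in wild type, and 14732307 to 14733163 had 319 and 9.70. The highest dek35 value of any member was less one-sided, with 872 FPKM in the mutant and 117 in wild type at chromosome 8, 168506539 to 168509902, a 7.47-fold difference.

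The typical member differed moderately. The 3 loci nearest the median ratio were chromosome 1, 46691418 to 46694044, with 633 FPKM in the mutant and 271 in wild type, chromosome 8, 163737203 to 163740608, with 667 and 285, and chromosome 9, 150352247 to 150355657, with 191 and 81.6. All 3 were 2.34-fold higher in dek35; the first pair had similar levels and the chromosome 9 locus a lower one.

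The largest differences, at 16-fold or more, were found mostly at short loci, but those at 4-fold or more on the higher side were not. The members spanned 239 to 46757 bp with a median of 2843 bp, shorter than the 3712 bp of the 13016 loci entered that met the other criteria. Of the 719, 210 spanned under 2000 bp; of the 24 loci at least 16-fold higher, 19 did, and of the 6 at least 16-fold lower, all 6 did. At 4-fold, 58 of the 148 higher members and 8 of the 12 lower ones spanned under 2000 bp, and their median spans were 2314 and 1202 bp. The spans of loci past these folds among all loci entered are not given here, so this may not be particular to the members. The longest member, chromosome 9, 1634037 to 1680793, had 322 FPKM in the mutant and 128 in wild type, 2.51-fold higher. The shortest, chromosome 7, 66968880 to 66969118, had 52.8 and 164 FPKM, 3.11-fold lower in dek35.

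By span, the median log2 ratio was 1.09 for 102 members under 1000 bp, 1.53 for 108 from 1000 to 2000 bp, 1.32 for 304 from 2000 to 4000 bp and 0.96 for 205 of 4000 bp or more. Lower members were unevenly spread: 10 of the 102 and 13 of the 108 shorter ones were at least 2-fold lower as deposited, but 6 of the 304 and 6 of the 205 longer ones. This rests on 35 lower members, and the shares of lower loci by span over all loci entered are not given here. The correlation of log2 span with log2 ratio over the 719 loci was -0.023 (Pearson) and -0.095 (Spearman). With the absolute distance of the log2 ratio from the members' median it was -0.21 (Pearson) and -0.10 (Spearman). FPKM divides by transcript length, and a short locus rests on fewer fragments at the same FPKM, so its ratio carries more counting error. Its part in the spread was not tested.

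**Figure D4:**
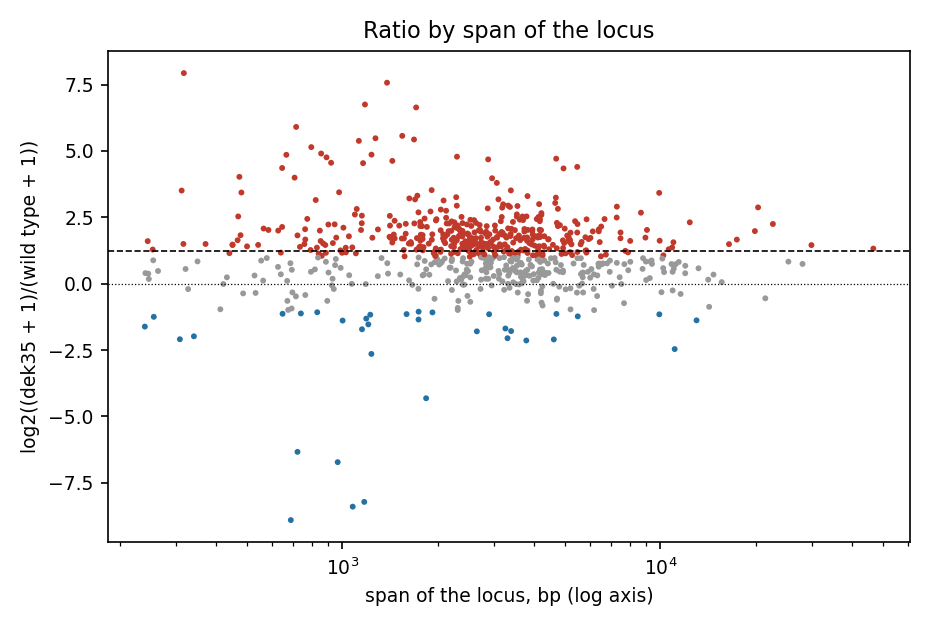
Each point is 1 of the 719 loci, with its span in bp on a log axis and log2((dek35 + 1)/(wild type + 1)) on the y axis; red, grey and blue mark at least 2-fold higher, within 2-fold and at least 2-fold lower, and the dashed line is the median, 1.22. The points farthest above and below the dashed line, at 16-fold or more, lie mostly under 2000 bp.

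The members came from every chromosome, and dek35 was the higher library on each. They made up from 4.49% of the loci entered that met the other criteria on chromosome 5 (68 of 1515) to 7.13% on chromosome 6 (76 of 1066), and 5.52% over all 10. The median log2 ratio ran from 1.02 on chromosome 2 to 1.39 on chromosome 1, or from 0.24 to 0.61 above the median locus. Chromosome 5 had no member at least 2-fold lower as deposited, and chromosome 1 had 2 of 107 (1.87%). The share was 4.87% of all members and 5.18% of all loci entered. Relative to the median locus, 5 members of chromosome 5 (7.35%) and 6 of chromosome 1 (5.61%) were lower by as much. On that scale the share was 10.2% of all members and 14.4% of all loci entered. Shares of lower loci over all loci of each chromosome are not given here. The lowest member of chromosome 5, 21903403 to 21908619, had 102 FPKM in the mutant and 199.95 in wild type, just short of 2-fold.

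On the chromosomes whose extremes are not yet given, the lowest members were from 3.49-fold to 6.41-fold lower. Chromosome 10, 147860137 to 147861369, had 37.6 FPKM in the mutant and 241 in wild type (log2 ratio -2.65). Chromosome 3, 7079526 to 7083312, had 46.7 and 210 FPKM (-2.14), and chromosome 2, 6197632 to 6202253, had 50.02 and 218 FPKM (-2.10). Chromosome 9, 20468376 to 20468683, had 39.4 and 172 FPKM (-2.09), and chromosome 1, 15352527 to 15355919, had 57.9 and 202 FPKM (-1.79). None of these 5 was near 0 in dek35. The highest members differed by far more. Chromosome 8, 16168400 to 16169065, had 661 FPKM in the mutant and 21.9 in wild type (4.85), chromosome 10, 116389620 to 116394321, had 267 and 9.25 FPKM (4.71), and chromosome 5, 170404698 to 170406132, had 428 and 16.4 FPKM (4.63).

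**Figure D5:**
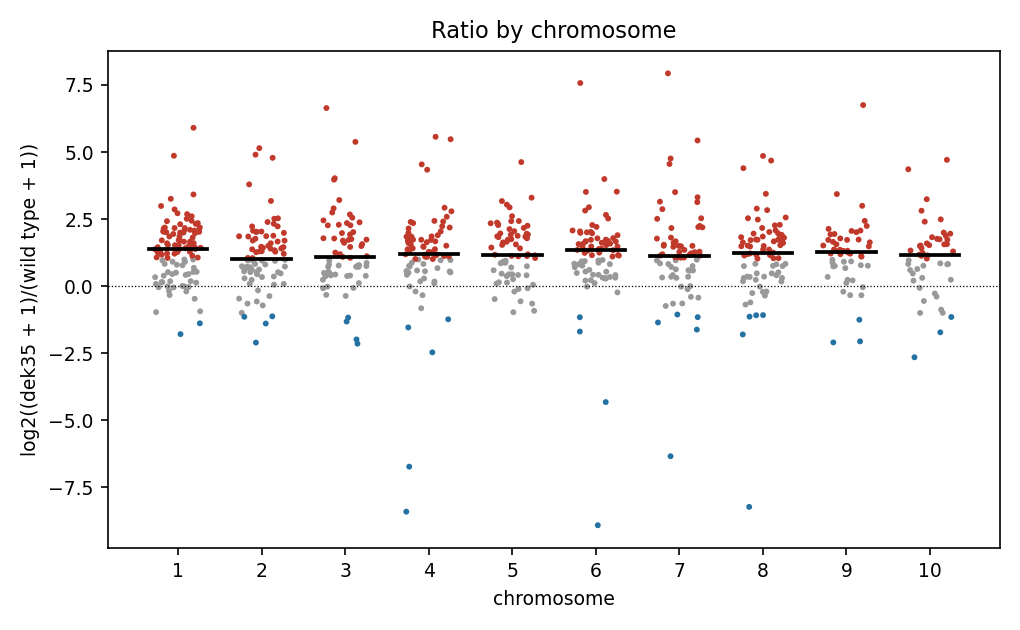
Log2((dek35 + 1)/(wild type + 1)) of the 719 loci by chromosome; points are loci, spread sideways at random, with colours for at least 2-fold higher (red), within 2-fold (grey) and at least 2-fold lower (blue), and black lines mark the median of each chromosome. The medians lie between 1.02 and 1.39, and the points under -4 are on chromosomes 4, 6, 7 and 8.

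The members were spread along the chromosomes much as the other loci were. The terminal 20% at both ends of each chromosome, measured to the last locus listed, held 431 of the 719 members (59.9%) and 7676 of the 13016 loci entered that met the other criteria (59.0%). The central 20% held 68 members and 1301 of those loci. The median log2 ratio of the members was 1.22 in the terminal parts and 1.23 in all that lies between them, with 1.13 in the central part. For the 13016 loci these medians were 0.80, 0.78 and 0.81. None of the 719 overlapped another listed locus, and neither did any of the 38428 distinct pairs of coordinates on the 10 chromosomes.

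Members close to each other had somewhat more similar ratios than members far apart, as a description without a test. Of the 719, 606 had no other member within 100 kb, and the remaining 113 formed 47 pairs, 5 runs of 3 and 1 run of 4. In 60 cases a member was at most 100 kb from the next one, and the median difference of their log2 ratios was 0.63. It was 0.86 for 241 successive members between 100 kb and 1 Mb apart and 0.96 for 408 more than 1 Mb apart. Both members lay on the same side of the members' median in 70.0%, 53.1% and 49.0% of these cases. Over the 60 close cases the log2 ratios correlated at 0.33 (Pearson) and 0.46 (Spearman); members of a run enter more than once, and both values come from the same libraries.

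The run of 4 showed very similar ratios. It lay on chromosome 1 from 296245798 to 296428658. Its loci had, in order of position, 189, 171, 286 and 277 FPKM in dek35 and 66.3, 63.4, 98.5 and 105 FPKM in wild type, so that all 4 were between 2.63-fold and 2.91-fold higher in dek35. Another run lay on the same chromosome from 296954940 to 296973619 and was less even. Its 3 loci had 469, 229 and 719 FPKM in dek35 and 235, 64.4 and 74.3 FPKM in wild type, from 1.998-fold to 9.68-fold higher. A run on chromosome 2 from 233847350 to 234028756 had 455, 350.4 and 220.2 FPKM in dek35 and 220, 177 and 145 FPKM in wild type, from 1.52-fold to 2.07-fold higher. These 3 runs were taken as those with the most members, ties going to the lower chromosome.

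The other 3 runs of 3, given after their values were seen, each held ratios on both sides of 0. On chromosome 5, from 163937574 to 164026683, the log2 ratios were 0.45, -0.48 and -0.92, and on chromosome 9, from 147332976 to 147465993, they were 0.88, 0.22 and -0.34. The chromosome 4 run held opposite ratios side by side. In it, 175765125 to 175769372 had 215 FPKM in the mutant and 99.9 in wild type, and 175769672 to 175780762, 299 bp farther on, had 33.4 in dek35 and 189 in wild type. The first was higher in dek35 (log2 ratio 1.10) and the second lower (-2.46).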

How the data were processed

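The authors deposited FPKM for 1 dek35 and 1 wild-type library of endosperm at 18 days after pollination, per the file headers. Bowtie 0.12.2 is named in the submitters' processing notes. No source used here gives the FPKM program, genome build, gene models or any scaling between libraries. The tables were joined by row order, after a check that their coordinates were identical. Values of 1e-05 FPKM or less are described as listed at 0. Loci with at least 5 FPKM in 1 library were entered, and log2((dek35 + 1)/(wild type + 1)) was computed, also relative to the median of all loci entered. On this scale the change of low loci is understated. Without replicates there was no test, and loci are called at 2-fold and 4-fold; folds of named loci are ratios of the deposited FPKM. Members and rules were chosen with earlier results of these data known. Loci were named by rule: the 5 highest and 5 lowest ratios, loci listed at 0, both edges of the range, the highest value in each library, the longest and shortest, the highest and lowest ratio on each chromosome, the 3 largest runs, and the 3 nearest the median; the sixth-lowest ratio, the chromosome 2 pair, the mixed runs and members beside a lower abundant locus were named after their values were seen. Depth is unknown, so no interval is given. Computation used Python 3.11.15, numpy 2.4.6 and pandas 2.3.3 and was tested on simulated data. Alternatives covered scaling, pseudocount, minimum level, background and the choice of members.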

Additional observations from a re-analysis of the deposited data

How the results depend on the processing

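No paired analysis was possible because neither genotype has a second sample, which also leaves no replicate to drop. Of 78 values (6 summaries of the members under 13 alternatives, 2 of them added after the data were seen), 56 kept within the limits set for a move, 21 moved and 1 reversed. The members' median log2 ratio of 1.22 became 1.43 with equal FPKM totals, 0.38 with median-of-ratios factors and 0.51 with totals that leave out the 50 highest loci. In the last pair, 186 and 224 members were higher by 2-fold or more and 80 and 69 lower by as much, since each scaling multiplies every dek35 value by 1 factor. Chosen on wild type alone, the median was 0.73 with 156 loci at least 2-fold higher as deposited, and relative to all loci the median reversed to -0.053 with 46 higher. Chosen on dek35 alone, the median was 1.40 with 648 higher and 21 lower as deposited, and relative to all loci 0.62 with 318 higher. Chosen on the mean after median-of-ratios scaling, 267 were higher as deposited and 109 relative to all loci. Without a minimum level the relative median was 0.91, with 337 higher and 46 lower, and with a minimum of 20 FPKM it was 0.28, because the median of all loci changed to 0.31 and 0.94. Shares of all loci past 2-fold under the changed scalings and minimum levels are not given here, so these counts have no background beside them. Of 40 values for the 10 named extreme loci, 18 moved and 0 reversed. Unknown depth limits every low value.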
